A study of Mus musculus with 6 samples.

Results

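A set of 4 genes of the pyruvate dehydrogenase step was followed in adipocytes differentiated with or without NJT-2, namely the subunit genes *Pdhb* and *Dlat* and the kinase genes *Pdk1* and *Pdk4*. These 4 genes were taken by symbol out of the 4864 genes with values in the deposited table, and each symbol had 1 row. The cells were adipose-derived stem cells (ADSCs), wild-type precursors isolated from the subcutaneous white adipose tissue of male C57BL/6J mice, whose age is not given in the sources used here. They were induced with dexamethasone, insulin, 3-isobutyl-1-methylxanthine, indomethacin and triiodothyronine, and the study harvests mature adipocytes on differentiation day 8. Both groups received this medium. The Control group (3 libraries) was given vehicle, and the NJT-2 group (3 libraries) received NJT-2, which is saikosaponin A. NJT-2 was assessed in vitro at 200 nM, and no concentration is named for the sequenced cultures themselves. The labels do not say whether the 3 cultures of a group came from different animals, so p-values measure only the spread between these libraries, which may be technical.

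The pyruvate dehydrogenase complex sits in the mitochondrial matrix and turns pyruvate, the end product of glycolysis, into acetyl-CoA, which enters the citrate cycle or, in adipocytes, supplies carbon for fatty acid synthesis. PDHB is the beta subunit of the E1 component, which decarboxylates pyruvate, and DLAT is the E2 component, which passes the acetyl group to coenzyme A on a lipoyl arm. The pyruvate dehydrogenase kinases, PDK1 and PDK4 among them, phosphorylate the E1 component and switch the complex off. *Pdk1* is a textbook target of the low-oxygen response, and *Pdk4* is a textbook target of fasting, glucocorticoids and the fatty acid sensing PPAR receptors.

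The positions of the 4 genes are those of the deposited table on GRCm38, and none overlaps another gene of GENCODE M21. *Dlat* (ENSMUSG00000000168) lies at chr9:50634633-50659780 on the minus strand, *Pdhb* (ENSMUSG00000021748) at chr14:8165996-8173025 on the minus strand, *Pdk1* (ENSMUSG00000006494) at chr2:71873224-71903858 on the plus strand, and *Pdk4* (ENSMUSG00000019577) at chr6:5483351-5496309 on the minus strand. The longest coding transcript has 14 exons in *Dlat*, 10 in *Pdhb*, 11 in *Pdk1* and 11 in *Pdk4* in GENCODE M21. To show what stands before the start of each gene, the 250 bases upstream of the RefSeq start (GRCm38.p6) are given 5′ to 3′ on the strand of the gene, at chr9:50659781-50660030 for *Dlat*, chr14:8172993-8173242 for *Pdhb*, chr2:71872974-71873223 for the first of the 2 *Pdk1* starts in that table, and chr6:5496279-5496528 for *Pdk4*. Capitals mark matches, on either strand, to the GC box with the letters GGGCGG, to the box named CCAAT after its letters, and to the core of the low-oxygen response element, which reads ACGTG.
Pdhb: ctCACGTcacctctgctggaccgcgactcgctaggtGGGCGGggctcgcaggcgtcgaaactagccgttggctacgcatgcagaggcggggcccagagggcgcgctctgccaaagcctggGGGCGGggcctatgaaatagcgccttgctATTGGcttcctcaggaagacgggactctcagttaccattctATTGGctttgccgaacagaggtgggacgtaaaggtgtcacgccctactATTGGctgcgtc
Dlat: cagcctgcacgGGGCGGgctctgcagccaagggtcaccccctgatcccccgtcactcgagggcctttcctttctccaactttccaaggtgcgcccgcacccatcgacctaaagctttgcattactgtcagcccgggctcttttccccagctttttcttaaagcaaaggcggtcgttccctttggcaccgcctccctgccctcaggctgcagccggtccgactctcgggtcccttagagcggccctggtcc
Pdk1: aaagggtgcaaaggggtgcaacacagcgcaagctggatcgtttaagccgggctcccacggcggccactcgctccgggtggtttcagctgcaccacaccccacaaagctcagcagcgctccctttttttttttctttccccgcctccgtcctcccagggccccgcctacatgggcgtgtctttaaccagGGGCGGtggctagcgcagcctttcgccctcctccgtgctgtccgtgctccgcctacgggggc
Pdk4: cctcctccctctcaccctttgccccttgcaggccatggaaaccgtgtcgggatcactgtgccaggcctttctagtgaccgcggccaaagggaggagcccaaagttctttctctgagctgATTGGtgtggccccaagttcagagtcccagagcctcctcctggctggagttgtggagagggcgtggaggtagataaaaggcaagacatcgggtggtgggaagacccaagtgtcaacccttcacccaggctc
The last 33 bases shown for *Pdhb* and the last 31 for *Pdk4* lie inside the gene as the deposited table bounds it. The window of *Pdhb* held 2 GC boxes, 3 CCAAT boxes, all read on the opposite strand, and 1 low-oxygen core, also on the opposite strand. That of *Dlat* held 1 GC box, that of *Pdk1* 1 GC box, and that of *Pdk4* 1 CCAAT box. The same search found the GC box in 32.7%, the CCAAT box in 33.8% and the low-oxygen core in 16.6% of 32817 promoters of this length, and in 59.8%, 35.0% and 22.0% of the 3739 promoters of genes tested here. The TATA box, searched as TATAAA, was in none of the 4 windows and in 12.4% of all promoters. The nuclear receptor half-site, searched as AGGTCA, was also in none of the 4 and in 14.0% of all promoters. GC content ran from 58.8% in *Pdk4* to 64.0% in *Pdk1*, and *Pdk4* held 6 CpG dinucleotides against 15 in *Dlat*, 19 in *Pdk1* and 20 in *Pdhb*. A match of letters is a description of the window and not a site of binding.

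The table genes took between 16093037 and 28929673 counts per library, and the totals of all reads implied by the count and FPKM columns ran from 58107215 to 89137582. A single library of each group stood apart from the other 2. By Euclidean distance on log2(FPKM + 1) over the genes tested, Control replicate 1 was 53.8 and 71.3 from the other Control libraries, which were 27.7 apart, and NJT-2 replicate 2 was 58.0 and 55.3 from the other NJT-2 libraries, which were 11.8 apart. The 10 most abundant genes held 21.3% of the counts of Control replicate 1 and 9.4% to 16.0% elsewhere. Results are therefore given with and without these libraries. Of the labelled cell type, the adipocyte markers *Adipoq*, *Lipe* and *Pnpla2* were detected in every library and were far lower in Control than in NJT-2, which is described with the marker lists. Fewer adipocytes and less of an RNA per adipocyte cannot be told apart in these bulk libraries.

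*Pdhb* had the highest level of the 4 genes in every library and the largest difference between the groups. Levels are given as FPKM, the count divided by gene length and library total, so that genes can be compared. The FPKM of *Pdhb* was 6.41, 12.5 and 12.9 in Control replicates 1 to 3, and the NJT-2 replicates in the same order had 127, 35.3 and 118. Every NJT-2 library lay above every Control library, NJT-2 replicates 1 and 3 were far above NJT-2 replicate 2, and Control replicate 1 was the lowest. The group means were 10.6 ± 3.62 (SD, n = 3) in Control and 93.6 ± 50.6 (SD, n = 3) in NJT-2, and on CPM, counts scaled to library size, the ratio of the means was 7.99. The fitted log2 fold change was 3.00 (SE 0.50), and the p adjusted by Benjamini-Hochberg over 3705 genes was 0.0508 (quasi-likelihood test of edgeR), which misses the limit of 0.05.

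*Dlat*, the gene of the E2 component, followed the same order of libraries at lower FPKM. Its FPKM was 2.61, 9.65 and 12.3 in Control and 61.8, 15.9 and 52.8 in NJT-2. The groups did not overlap, although NJT-2 replicate 2 was only a little above Control replicate 3. The means were 8.18 ± 5.00 (SD, n = 3) in Control and 43.5 ± 24.3 (SD, n = 3) in NJT-2, a ratio of 5.06 on the CPM scale. The log2 fold change was 2.34 (SE 0.60) with an adjusted p of 0.137 (edgeR), so the difference did not pass the test.

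*Pdk4* showed a smaller difference and the tightest NJT-2 group. Its FPKM was 2.09, 4.44 and 6.49 in Control and 10.9, 8.14 and 8.43 in NJT-2. No NJT-2 library fell into the Control range, and the highest NJT-2 value was 1.33 times the lowest, against 3.60 times for *Pdhb* and 3.89 times for *Dlat*. The means were 4.34 ± 2.2 (SD, n = 3) in Control and 9.14 ± 1.49 (SD, n = 3) in NJT-2, a ratio of 1.98 on the CPM scale. The log2 fold change was 0.99 (SE 0.36), and the adjusted p of 0.235 (edgeR) did not pass.

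*Pdk1* was the gene whose groups overlapped. Its FPKM was 1.75, 6.50 and 9.37 in Control and 3.92, 23.5 and 5.06 in NJT-2. NJT-2 replicate 2 was the highest library by far, and NJT-2 replicates 1 and 3 lay within the Control range. The means were 5.87 ± 3.85 (SD, n = 3) in Control and 10.8 ± 11 (SD, n = 3) in NJT-2. The log2 fold change was 0.90 (SE 0.78, adjusted p = 0.515 in edgeR) with all libraries, and -0.47 (adjusted p = 0.615) without NJT-2 replicate 2, so its direction rests on that library.

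**Figure D1:**
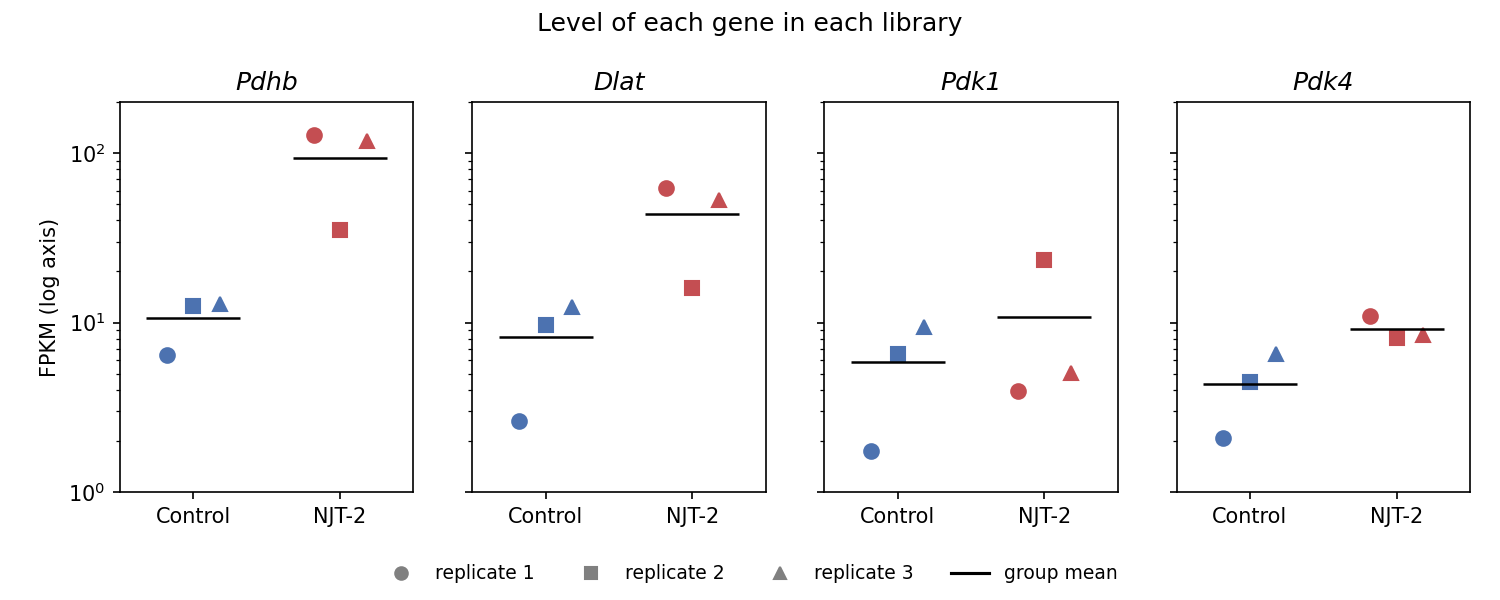
FPKM of each gene (log axis) in the 3 Control (blue) and 3 NJT-2 (red) libraries, with symbols for the replicate number and a line at the group mean. Every NJT-2 library lies above every Control library for *Pdhb*, *Dlat* and *Pdk4*, while *Pdk1* is highest in NJT-2 replicate 2 at 23.5 FPKM and the other NJT-2 libraries lie within the Control range.

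None of the 4 genes passed both limits set for a call in edgeR, which were 0.05 for the adjusted p and 1 for the size of the log2 fold change. Across the 3705 genes tested, calls were made for 21 (0.567%) as higher with NJT-2 and for 5 (0.135%) as lower, and 658 had an unadjusted p under 0.05. Of the 4 genes, 3 (*Pdhb*, *Dlat* and *Pdk4*) did not overlap between the groups with NJT-2 higher, which was also the case for 560 genes (15.1%) of those tested, and 520 (14.0%) did not overlap with NJT-2 lower. Ranked by p among all genes tested, *Pdhb* stood at 30, *Dlat* at 131, *Pdk4* at 402 and *Pdk1* at 2051. In the order of mean FPKM among genes tested, *Pdhb* stood at the 64.7 percentile in Control and the 96.2 percentile in NJT-2, and *Dlat* at 57.6 and 90.1. *Pdk4* stood at 39.5 and 57.7, and *Pdk1* at 47.8 and 62.5.

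The outcome for the subunit genes depended on the tool and on the libraries that stood apart. DESeq2 on the same counts called *Pdhb* (log2 fold change 3.01, adjusted p = 1.6e-07) and *Dlat* (2.35, adjusted p = 0.00242) higher, among 163 genes (4.40%) that it called higher. It did not call *Pdk4* (1.01, adjusted p = 0.101) or *Pdk1* (0.94, adjusted p = 0.454). With Control replicate 1 and NJT-2 replicate 2 both left out, edgeR called *Pdhb* (3.27, adjusted p = 0.00106) and *Dlat* (2.38, adjusted p = 0.00284), among 255 genes (6.88%) called higher. The pair was picked by distances in these same data, so a smaller spread within the groups was built in. The SE of *Dlat* went from 0.60 with all libraries to 0.21. In that fit *Pdk4* had a log2 fold change of 0.82 (adjusted p = 0.0886) and *Pdk1* one of -0.82 (adjusted p = 0.0729). Leaving out NJT-2 replicate 2 alone gave a call for *Pdhb* (3.37, adjusted p = 0.0132) but not for *Dlat* (2.72, adjusted p = 0.0602), with 56 genes (1.51%) called higher. Over all 18 alternatives, the log2 fold change stayed positive for *Pdhb* (2.72 to 3.37), *Dlat* (1.95 to 2.72) and *Pdk4* (0.74 to 1.25), and that of *Pdk1* was positive in 15 and negative in 3.

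**Figure D2:**
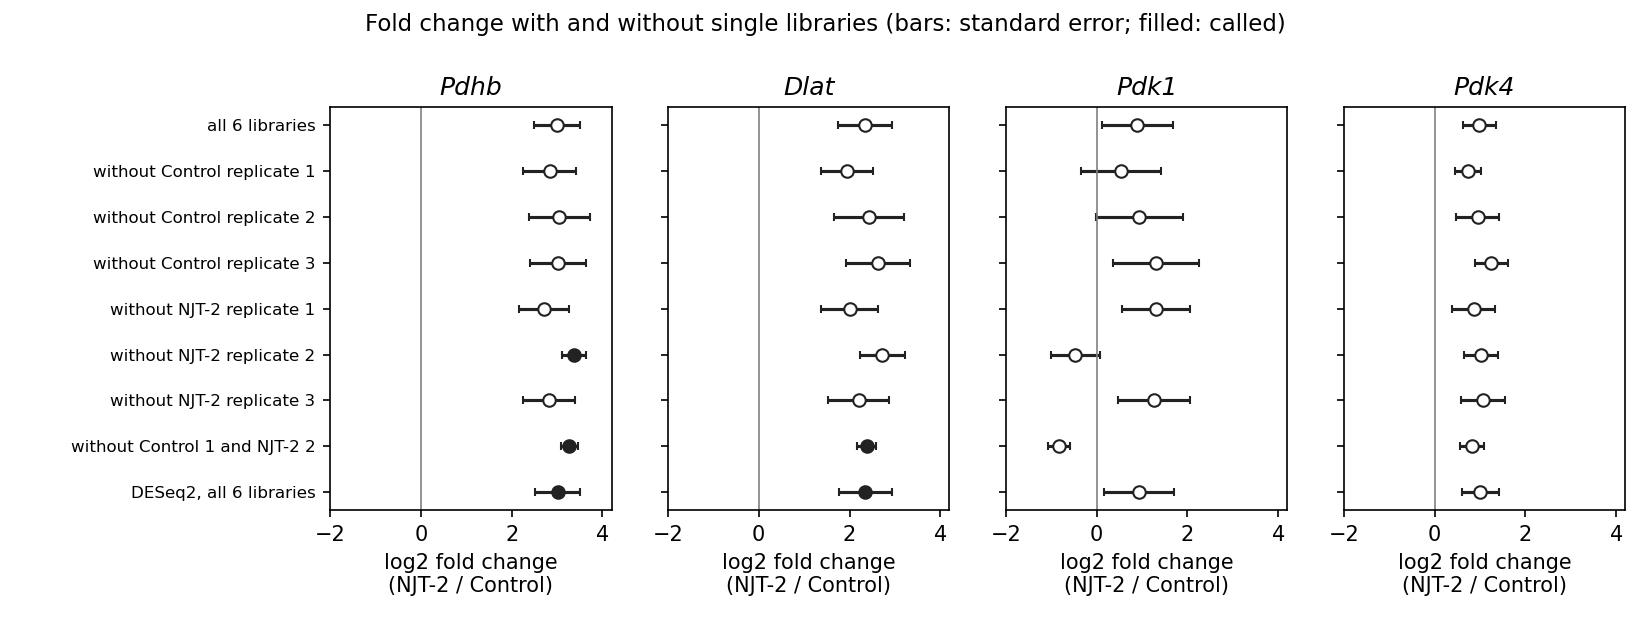
Log2 fold change of NJT-2 over Control (x axis) for each gene in the fit of all 6 libraries, in fits without single libraries or without the pair that stood apart, and in DESeq2; bars are standard errors and filled points passed both limits. *Pdhb* stays between 2.72 and 3.37 and *Dlat* between 1.95 and 2.72, and *Pdk1* turns negative once NJT-2 replicate 2 is left out.

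Set against the mean of the Control libraries on the CPM scale, the subunit genes were 10.8-fold (*Pdhb*) and 7.17-fold (*Dlat*) in NJT-2 replicate 1, and 9.87-fold and 6.02-fold in replicate 3. In replicate 2 they were 3.27-fold and 2.01-fold. *Pdk4* was 2.31-fold, 1.88-fold and 1.76-fold in replicates 1 to 3, close to one another. *Pdk1* was 0.636-fold and 0.807-fold in replicates 1 and 3 and 4.14-fold in replicate 2, so the library with the smallest excess of the subunit genes had the largest *Pdk1* level.

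The order of the FPKM levels within a library differed below *Pdhb*. In Control replicates 2 and 3 it ran *Pdhb*, *Dlat*, *Pdk1*, *Pdk4*, and in Control replicate 1 and NJT-2 replicates 1 and 3 it ran *Pdhb*, *Dlat*, *Pdk4*, *Pdk1*. In NJT-2 replicate 2 *Pdk1* came second, above *Dlat*. *Pdhb* and *Dlat* were close to each other in Control replicates 2 and 3, with ratios of 1.29 and 1.05, and further apart in Control replicate 1 (2.46) and throughout the NJT-2 group (2.06, 2.22 and 2.24), so that this ratio overlapped between the groups. FPKM uses the length of a whole gene model, which for *Pdhb* came to 3863 bases against 1513 in its longest coding transcript. On the coding length, the mean level of *Pdhb* would be 27.0 in Control and 239 in NJT-2, and that of *Dlat* 9.91 and 52.7. The order of the group means is kept, but the closeness of *Pdhb* and *Dlat* in Control depends on the length used. The order within single libraries and the size of the ratios also depend on it and were not recomputed. A change of length moves a ratio by the same factor in every library.

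Ratios of *Pdk1* and *Pdk4* to *Pdhb* and *Dlat* were taken on FPKM values within each library, where library size cancels. They do not give the balance of all kinases to all subunits. Of 13 genes listed for the complex and its regulators, 7 were not in the table. *Pdk4* over *Pdhb* was 0.326, 0.356 and 0.505 in Control and 0.0853, 0.230 and 0.0714 in NJT-2. All NJT-2 ratios lay below all Control ratios, with means of 0.396 ± 0.0957 (SD, n = 3) and 0.129 ± 0.0880 (SD, n = 3). *Pdk1* over *Pdhb* was 0.273, 0.521 and 0.729 in Control and 0.0308, 0.664 and 0.0429 in NJT-2. Here NJT-2 replicates 1 and 3 were lower than any Control library and NJT-2 replicate 2 lay within the Control range, so the groups overlapped. *Pdk1* over *Pdk4* was 0.837, 1.46 and 1.44 in Control and 0.361, 2.88 and 0.600 in NJT-2, and the single NJT-2 library with more *Pdk1* than *Pdk4* was replicate 2. Against *Dlat* in place of *Pdhb*, *Pdk4* did not separate the groups. *Pdk4* over *Dlat* was 0.80, 0.46 and 0.53 in Control and 0.18, 0.51 and 0.16 in NJT-2, with NJT-2 replicate 2 inside the Control range. *Pdk1* over *Dlat* overlapped as well. No test was run on these ratios.

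**Figure D3:**
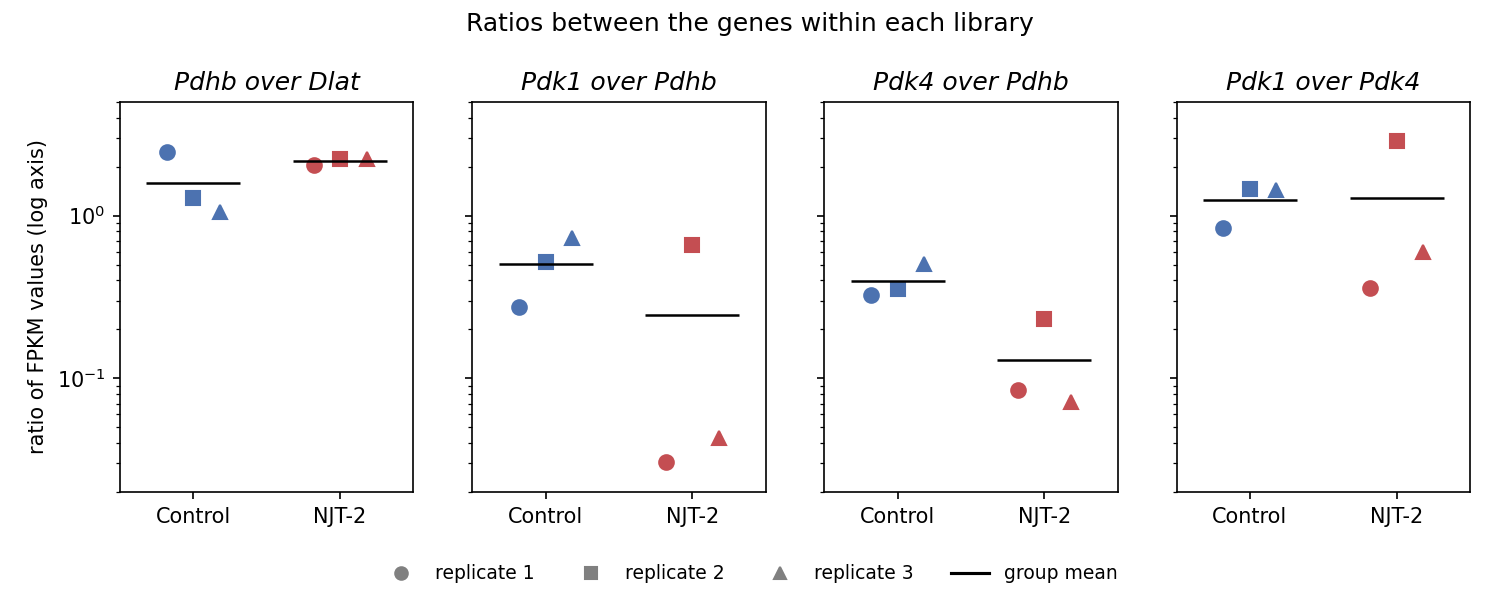
Ratios of FPKM values (log axis) within each library, with symbols for the replicate number and a line at the group mean. *Pdk4* over *Pdhb* is 0.326 to 0.505 in Control and 0.0714 to 0.230 in NJT-2. The ratios that hold *Pdk1* overlap. NJT-2 replicate 2 is within the Control range for *Pdk1* over *Pdhb* (0.664) and the highest library for *Pdk1* over *Pdk4* (2.88). *Pdhb* over *Dlat* also overlaps, and so does *Pdk4* over *Dlat*, which is not drawn.

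Of a list of 13 genes for the complex and its regulators, 6 were in the table and tested. In edgeR with all libraries 0 were called in either direction. All 6 had a log2 fold change above 0, and 5 did not overlap with NJT-2 higher, against 15.1% of all genes tested. The median log2 fold change of the 6 was 1.67, against 0.02 over all genes tested. The 2 that have not yet been described are *Dld*, the E3 component that reoxidises the lipoyl arm, and *Pdhx*, which anchors E3 to the core. The FPKM of *Dld* was 8.02, 22.4 and 23.3 in Control and 84.5, 36.1 and 73.8 in NJT-2 (log2 fold change 1.76, SE 0.42, adjusted p = 0.132 in edgeR). That of *Pdhx* was 2.25, 3.87 and 4.15 in Control and 15.3, 5.56 and 13.4 in NJT-2 (1.58, SE 0.41, adjusted p = 0.139). Both had the library order seen for *Pdhb* and *Dlat*, with NJT-2 replicate 2 nearest to Control. DESeq2 called *Pdhb*, *Dlat*, *Dld* and *Pdhx*, and edgeR called the same 4 genes without Control replicate 1 and NJT-2 replicate 2. Over all genes tested, these fits called 4.40% and 6.88% higher.

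Genes that bring pyruvate to the complex or lead it elsewhere did not share 1 pattern over the libraries. Of 18 such genes, 6 were in the table and 5 tested, with a median log2 fold change of 2.11. In edgeR with all libraries 0 were called, against 2 called higher by DESeq2 (*Mpc1* and *Pcx*), and without Control replicate 1 and NJT-2 replicate 2 the same 2 were called higher and *Slc16a3* lower. Of all genes tested, DESeq2 called 4.40% higher. The fit without that pair called 6.88% higher, and 227 of 3705 genes lower. *Mpc1*, a subunit of the carrier that moves pyruvate into mitochondria, had an FPKM of 0.70, 6.35 and 6.91 in Control and 45.0, 17.8 and 33.4 in NJT-2 (log2 fold change 2.76, adjusted p = 0.134 in edgeR). *Pcx*, pyruvate carboxylase, the other main entry of pyruvate into mitochondrial metabolism, had 26.0, 31.1 and 35.1 in Control and 219, 68.5 and 190 in NJT-2 (2.17, adjusted p = 0.10). Neither gene overlapped between the groups, with NJT-2 higher, as was the case for 15.1% of all genes tested. *Me2*, a mitochondrial malic enzyme that makes pyruvate, and *Slc16a3*, a lactate exporter, were chosen after their values were seen. *Me2* was 32.7 in NJT-2 replicate 2 and 1.86 to 4.64 elsewhere, and *Slc16a3* was 20.8 to 24.0 in Control, 79.0 in NJT-2 replicate 2, and 3.78 and 5.92 in the remaining pair of that group. Both were highest in NJT-2 replicate 2, as were *Pdk1* and 26.2% of all genes tested. Because they were chosen with their values known, their likeness to *Pdk1* is a description only. *Mpc1* and *Pcx* were highest in NJT-2 replicate 1.

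**Figure D4:**
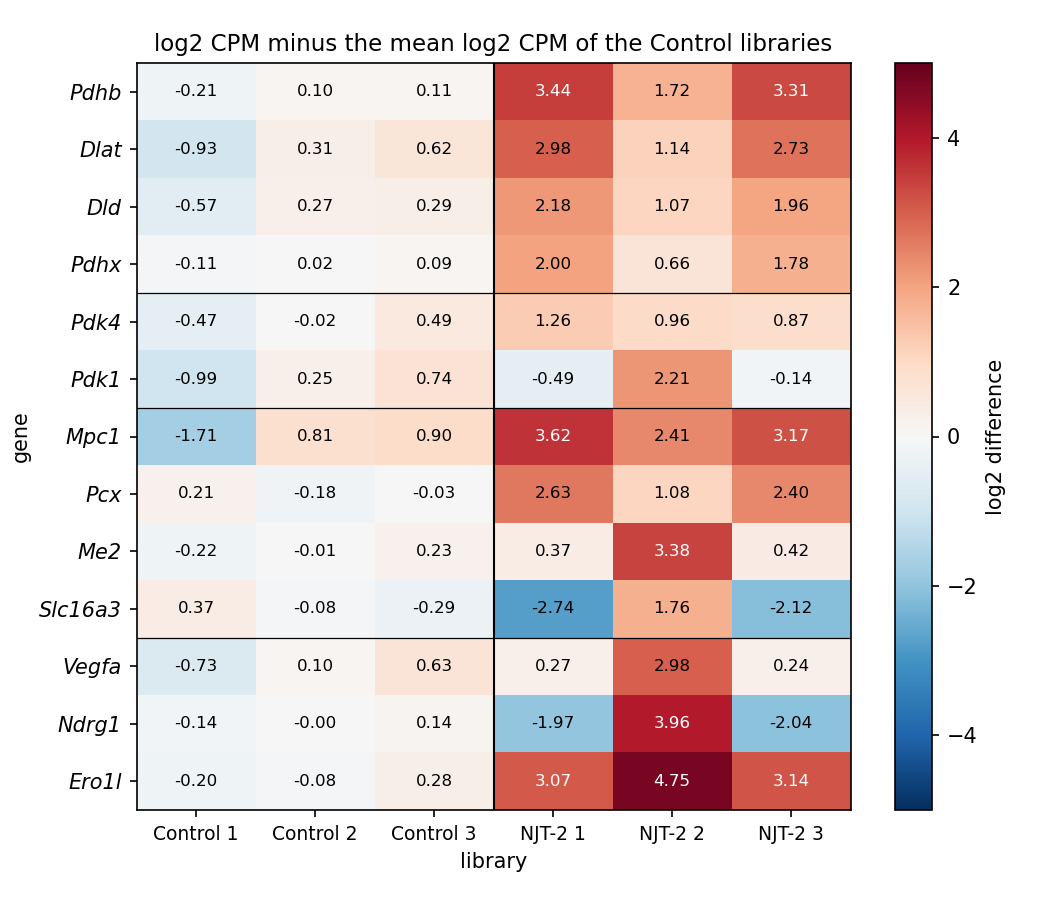
Difference in log2 CPM from the mean log2 CPM of the Control libraries (colour and number) for the genes of the complex, the kinases, pyruvate transport and other fates, and low-oxygen genes, by library. NJT-2 replicate 2 has the lowest values of the NJT-2 group for *Pdhb* (1.72), *Dlat* (1.14), *Dld* and *Pdhx* and the highest for *Pdk1* (2.21), *Me2*, *Slc16a3*, *Vegfa*, *Ndrg1* and *Ero1l*.

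Downstream of the complex, all 11 tested genes of 18 in the citrate cycle had a log2 fold change above 0, with a median of 0.89. Of these, 5 did not overlap on the CPM scale with NJT-2 higher, against 15.1% of all genes tested. In edgeR with all libraries 0 were called. DESeq2 called 4 higher (4.40% of all genes tested), and edgeR without the pair of libraries that stood apart called 9 higher (6.88% of all genes tested). *Cs*, citrate synthase, which joins acetyl-CoA to oxaloacetate, had an FPKM of 17.5, 32.7 and 35.2 in Control and 132, 42.0 and 112 in NJT-2 (log2 fold change 1.60, adjusted p = 0.164 in edgeR). Of 12 genes that use acetyl-CoA, 6 were tested, 4 had a log2 fold change above 0, and the median was 0.52. In edgeR with all libraries 0 were called, DESeq2 called *Cs* (1.61, adjusted p = 0.00985), and edgeR without the pair of libraries called 3 higher, among them *Cs* (adjusted p = 0.00522) and *Acaca* (1.91, adjusted p = 0.00698). Apart from *Cs*, the gene furthest from 0 was *Acaca*, the acetyl-CoA carboxylase of fatty acid synthesis (1.37, adjusted p = 0.221). Of 14 genes for lipoate attachment and the sister 2-oxoacid dehydrogenases, 4 were tested, with a median of 0.67. Both edgeR with all libraries and DESeq2 called 0, and edgeR without the pair of libraries called 3 higher. Their furthest values were *Dbt*, the E2 component for branched-chain amino acids (1.62, adjusted p = 0.269), and *Ogdhl*, a brain-type relative of oxoglutarate dehydrogenase (-1.0, adjusted p = 0.253).

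A pair of lists followed the known control of the kinases. Of 14 factors known to act on *Pdk1* or *Pdk4* transcription, 8 were tested, with a median log2 fold change of 0.50. *Ppara* was in the table but fell below the mean FPKM of 0.5 needed for testing. Its FPKM was 0.0, 0.03 and 0.08 in Control and 1.52, 0.31 and 0.95 in NJT-2. Of the 8 tested, edgeR with all libraries called 0. Among them, *Pparg* alone was called by DESeq2 (2.64, adjusted p = 0.000586) and by edgeR without Control replicate 1 and NJT-2 replicate 2 (2.55, adjusted p = 0.00196). These fits called 4.40% and 6.88% of all genes tested higher. *Pparg*, the master receptor of adipocyte differentiation, had an FPKM of 1.06, 5.68 and 6.41 in Control and 37.3, 13 and 33.7 in NJT-2 (2.62, adjusted p = 0.119 in edgeR). *Nr3c1*, the glucocorticoid receptor, had 0.65, 3.93 and 8.02 in Control and 10.3, 17.2 and 8.66 in NJT-2 (1.55, adjusted p = 0.290). *Hif1a*, the low-oxygen factor itself, chosen after its values were seen, was 20.7 to 119 in Control and 39.5 to 74.8 in NJT-2, so the groups overlapped. Of 14 lipid metabolism genes known to share PPAR control with *Pdk4*, 5 were tested, 4 with a log2 fold change above 0 and 1 below. Of the 5, 2 were called higher by edgeR with all libraries, against 0.567% of all genes tested. *Acot2*, a mitochondrial acyl-CoA thioesterase, rose from 0.34, 0.99 and 1.05 FPKM in Control to 11.1, 9.53 and 8.24 in NJT-2 (3.52, adjusted p = 0.0270), with NJT-2 replicates close to one another as for *Pdk4*. Its call was lost on removal of any library but NJT-2 replicate 2 (adjusted p from 0.0617 to 0.243). *Acadvl* (0.68, adjusted p = 0.413) and *Angptl4* (0.55, adjusted p = 0.604, negative without NJT-2 replicate 2) were not called, and the median of the list was 0.69.

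The low-oxygen genes outside pyruvate metabolism were highest in the library in which *Pdk1* was highest. Of 15 genes, 6 were tested, and all 6 had their highest CPM in NJT-2 replicate 2, as did 969 of the 3705 genes tested (26.2%). Their summed FPKM was 184 to 361 in Control, 1699 in NJT-2 replicate 2, and 428 and 457 in the remaining pair of that group. *Ndrg1* was 183 in NJT-2 replicate 2 and 3.18 to 14.4 elsewhere, and its log2 fold change of 2.41 (adjusted p = 0.375 in edgeR) turned to -2.01 without that library. *Vegfa*, the vascular growth factor, was 341 in NJT-2 replicate 2 and 18.1 to 74.1 elsewhere, and its log2 fold change of 1.67 (adjusted p = 0.304) came to 0.15 without that library. *Ero1l*, an oxidase of the endoplasmic reticulum, was the gene of the list called higher (3.86, adjusted p = 0.0408), with 263, 777 and 282 FPKM in NJT-2 against 17.4 to 38.8 in Control, and this call was lost on removal of any library but NJT-2 replicate 2 (adjusted p from 0.0851 to 0.30). With Control replicate 1 and NJT-2 replicate 2 both left out, 2 genes of the list were called lower, *Ndrg1* being 1 of them. Among all 3705 genes tested, 0.567% were called higher with all libraries, and 227 genes were called lower without that pair. The median of the list was 1.47. The part of this signal in the *Pdk1* level was not tested, and the labels record nothing by which NJT-2 replicate 2 differs from the other cultures.

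Marker lists for the cell types that such a culture can hold were read in the same libraries. Of 11 adipocyte markers, 6 were tested, 3 were called higher, 5 did not overlap, and the median log2 fold change was 4.12. Over all genes tested, 0.567% were called higher and 15.1% did not overlap with NJT-2 higher. *Adipoq*, the adipocyte hormone adiponectin, rose from 31, 62 and 38 counts in Control to 6334, 2133 and 5641 in NJT-2 (6.62, adjusted p = 0.0127 in edgeR). The lipase genes *Lipe* (4.24, adjusted p = 0.0432) and *Pnpla2* (3.99, adjusted p = 0.0408) rose too, while *Slc2a4*, the insulin-responsive glucose transporter (6.49, adjusted p = 0.0933), and *Retn*, the hormone resistin (2.68, adjusted p = 0.219), did not pass. DESeq2, and edgeR without the pair of libraries that stood apart, called all 6, against 4.40% and 6.88% of all genes tested. In edgeR the call of *Adipoq* was lost without Control replicate 1 (adjusted p = 0.0617) or 2 (adjusted p = 0.12), and those of *Lipe* and *Pnpla2* without any library but NJT-2 replicate 2 (0.0851 to 0.30). The summed FPKM of these markers was 72.6 to 102 in Control and 1124, 254 and 874 in NJT-2, lowest in replicate 2 within NJT-2, as for *Pdhb* and *Dlat*. Its part in the subunit levels was not tested.

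Of 11 fibroblast and preadipocyte markers, 4 were tested, all had a negative log2 fold change, and the median was -0.88. *Pi16*, a marker of early adipose progenitors, fell (-3.82, adjusted p = 0.0270 in edgeR), and *Pdgfrb* (-1.34, adjusted p = 0.151) and *Cd34* (-0.42, adjusted p = 0.614) were not called. The summed FPKM of this list was 198 to 794 in Control and 397 to 446 in NJT-2. Of 10 macrophage markers, 3 were tested. *Adgre1* rose (3.23, adjusted p = 0.0408), *Cd68* (1.79, adjusted p = 0.0820) and *Csf1r*, the receptor that defines the lineage (0.02, adjusted p = 0.974, with a sign that changed between alternatives), were not called, and the median was 1.79. Removal of any library but NJT-2 replicate 2 ended the call of *Adgre1* (adjusted p from 0.0851 to 0.30), and that of *Pi16* was lost without Control replicate 1 or 2 or NJT-2 replicate 1 or 3 (0.0617 to 0.243). DESeq2, and edgeR without the pair of libraries, called 2 markers of each of these lists, fibroblast ones lower and macrophage ones higher. Over all 3705 genes, DESeq2 called 163 higher and 126 lower, and edgeR without the pair called 255 and 227. The summed FPKM of the macrophage markers was 9.67 to 12.7 in Control and 56.8, 31.2 and 43.8 in NJT-2, and their part in the subunit levels was not tested. Of 5 endothelial markers, 2 were tested, *Tek* (0.77, adjusted p = 0.518) and *Pecam1* (-0.34, adjusted p = 0.739), with a median of 0.21 and a summed FPKM of at most 2.42 in any library. Of 9 markers of skeletal muscle, a tissue with much *Pdk4*, 1 was in the table, *Myod1*, with 3 counts in NJT-2 replicate 2 and 0 in the other libraries.

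The genes whose pattern was most like each of the 4 genes were taken by Pearson's correlation of log2 CPM over the 6 libraries. The libraries share their group difference and their depth, so these values are descriptions. For *Pdhb* they were *Adgre1* (0.996), *Prune1* (0.994) and *Aldh1a7* (0.993), and for *Dlat* they were *Cav2* (0.998), *Met* (0.998) and *Cav1* (0.997). *Cav1* and *Cav2* code for caveolins, the coat proteins of the surface pits abundant in adipocytes. For *Pdk4* they were *Mertk* (0.990), *Itgb2* (0.990) and *Zfp91* (0.985), of which *Mertk* and *Itgb2* are known from macrophages. For *Pdk1* they were *Timp3* (0.995), *Fyn* (0.994) and *Cdh2* (0.993), whose log2 fold changes of 0.93, 0.28 and 0.67 turned negative, as that of *Pdk1* did, without NJT-2 replicate 2. Between the 4 genes, the correlation was 0.955 for *Pdhb* and *Dlat*, 0.907 for *Dlat* and *Pdk4*, and 0.855 for *Pdhb* and *Pdk4*. *Pdk1* had 0.042 with *Dlat*, -0.028 with *Pdhb* and 0.383 with *Pdk4*, so the kinase genes did not share 1 pattern over these libraries.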

How the data were processed

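RNA-seq libraries of 3 Control and 3 NJT-2 cultures were compared, grouped and numbered by the sample labels. Per the submitters' processing notes, the authors used cutadapt 1.9, HISAT2 2.2.1 on GRCm38, StringTie 2.1.6, DESeq2 and edgeR. The counting tool, annotation release and use of strand are not given in the sources used here, and the kit marks strand. The authors deposited raw read counts per gene, not normalized, and FPKM values, into which the authors' gene length and library total enter. The table analysed here has 4865 lines, of which 1 holds no values. A gene outside these lines was not analysed here. The lines held 27.7% to 32.5% of the implied library totals. Normalization, adjusted p values, ranks and shares of genes tested therefore rest on that part of the reads.

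Counts were tested with edgeR 4.0.16 in R 4.3.3 (TMM, quasi-likelihood test) over 3705 genes whose FPKM averaged 0.5 or more, with p adjusted by Benjamini-Hochberg. A call needed an adjusted p below 0.05 and a log2 fold change beyond 1 in size. Standard errors were taken from the F statistic. Log2 CPM used a prior count of 2. Groups were called not overlapping on the CPM scale. All pairs of libraries differed by more than sampling noise (closest chi-square 49.7 per gene). The 4 genes and all lists were chosen with earlier results of these data known. Besides the 4 genes, the text names the tested genes of the complex list, the called genes and the 2 with the largest absolute log2 fold change of each other list, and the 3 genes most correlated with each of the 4. Results for 2 genes under this rule are left out here. Alternatives were DESeq2 1.42.0, other normalizations and filters, limma 3.58.1 on FPKM, voom with sample quality weights, a length offset, a replicate block and leaving out libraries. The code was tested on simulated data with 200 changed genes. The main test recovered 0 of them at a log2 fold change of 1, 127 at 2 and 191 at 3. False calls numbered 0, 10 and 8 in the same order. No simulated library stood apart from its group, unlike Control replicate 1 and NJT-2 replicate 2. With 0 recovered at a log2 fold change of 1, a missing call says little about a difference of the size seen for *Pdk4* or *Pdk1*. Promoters came from RefSeq (GRCm38.p6), in which all 4 genes were found.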

Additional observations from a re-analysis of the deposited data

How the results depend on the processing

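The biological coefficient of variation over the 3 libraries a group was 0.504, and the effect of depth on the calls was not tested. *Pdhb* was also called with DESeq2 (3.01), RLE size factors (3.01), at least 10 counts in every library (3.00), a length offset (3.04), voom with sample quality weights (3.25), the replicate block (2.84) and both libraries that stood apart left out (3.27), and its range with single libraries left out was 2.72 to 3.37. *Dlat* was also called with DESeq2 (2.35), voom (2.5) and both libraries left out (2.38), with a range of 1.95 to 2.72 that made no call. *Pdk4* passed the limits with voom (1.004, adjusted p = 0.00101) and ranged from 0.74 to 1.25. *Pdk1* reversed with voom (-0.51) and both libraries left out (-0.82) and ranged from -0.47 (without NJT-2 replicate 2) to 1.31. The weights of voom were 0.141 for Control replicate 1 and 0.130 for NJT-2 replicate 2, against 0.438 to 6.94 for the others. Adjusted p values over the 18 alternatives ran from 1.6e-07 to 0.319 for *Pdhb*, from 2.94e-06 to 0.414 for *Dlat*, from 0.00101 to 0.479 for *Pdk4* and from 0.0719 to 0.800 for *Pdk1*.

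Over all genes, 21 were called higher in the fit of all libraries and 163 with DESeq2, 392 with voom, 43 with the replicate block, 255 with both libraries left out, and 0 to 56 with single libraries left out. Called lower were 5 in that fit, 126 with DESeq2, 9 with upper-quartile factors, 9 without a filter, 9 with at least 10 counts in every library, 10 with limma on either FPKM scale, 335 with voom, 14 with the block, 227 with both libraries left out, and 0 to 19 with single libraries left out. Without Control replicate 2, edgeR called 0 genes in either direction, although 421 had an unadjusted p under 0.05, and without Control replicate 1 it called 0 higher and 1 lower, with 556. Without NJT-2 replicate 1 it called 1 higher and 0 lower, with 410, and without NJT-2 replicate 3 also 1 higher and 0 lower, with 414. Without NJT-2 replicate 2 it called 56 higher and 19 lower, and without Control replicate 3 it called 2 and 2.

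The replicate numbers are shared by the labels without a stated pairing, and the deviations of same-numbered libraries correlated at 0.179, 0.032 and -0.207, so the numbers were not taken to pair the libraries. Not every library correlated best with its own number. With the block *Dlat* had 2.27, *Pdk1* 0.53 and *Pdk4* 1.03, and the block changed the call of *Pdhb* (adjusted p = 0.0215) and of no other of the 4 genes. The median log2 fold change of all genes moved from 0.02 to 0.159 with the implied library totals, 0.141 with limma on log2(FPKM + 1) and 0.173 on log2(FPKM + 0.1), by far less than the values of *Pdhb* or *Dlat*.

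Of the other named genes, those that reversed were *Ndrg1* (voom -1.95, block -0.57, both libraries left out -2.07, single libraries -2.01 to 2.98), *Slc16a3* (limma -0.73 and -0.85, voom -2.24, block -1.22, both left out -2.22, single -2.43 to 0.83), *Cdh2* (voom -0.72, both left out -1.10, single -0.72 to 1.16), *Timp3* (-0.25, -0.71, single -0.38 to 1.44), *Fyn* (-0.32, -0.53, single -0.29 to 0.53) and *Angptl4* (-0.52, -0.45, single -0.49 to 0.90). *Vegfa* (-0.13) and *Tek* (-0.15) reversed with both left out. *Csf1r* (upper quartile -0.01, offset -0.17, voom -0.05, single -0.23 to 0.37) and *Hif1a* (limma 0.08 and 0.09, single -0.60 to 0.34) lay near 0. Over the 809 values of 45 named genes, 44 lost a call and 68 gained one. Besides fits without a library, *Lipe* lost its call with the length offset (adjusted p = 0.0588) and *Adgre1* with the implied library totals (adjusted p = 0.0656). Apart from leaving out libraries, the cause of these changes was not tested.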
